A study of Saccharomyces cerevisiae with 42 samples.

Results

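Yeast cells without the HOG1 gene (strain hog1del) were compared with cells whose Hog1 carries a GFP tag (strain HOG1-GFP) before any osmotic shock. The members are the columns at 0 min of the 3 deposited level tables, 1 table for each biological replicate, and each difference was formed within a table. They rest on 14 of the series' 42 samples, 7 for each strain. Biological replicate 1 was hybridized in technical triplicate, and replicates 2 and 3 were each read from duplicate features on a slide. The authors had averaged these technical values, which left 3 values for each strain. The third strain, HOG1-CCAAX, has a Hog1 that ends in a lipidation motif, and such motifs hold proteins at membranes. It is used here as a further unstressed strain that carries HOG1. The same strains after 60 min in 1 M sorbitol at 25 °C are used only to set the unstressed differences beside the stressed ones. The labels used here give the strains by these names alone, without the parent strain, the selection marker, the mating type, the medium or the number of clones, and they call the replicates biological without saying whether the cultures were separate. The p-values rest on the spread between these replicates, taken over all 3 strains with the table effects removed. That spread is then drawn toward the one common to all genes. The ± values are the SD of the 3 within-table differences and are not the spread behind the p-values.

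Hog1 is the MAP kinase at the end of the high-osmolarity glycerol (HOG) pathway of yeast. The sensor kinase Sln1 and the Sho1 branch lead to the MAP kinase kinase Pbs2, which phosphorylates Hog1, while the phosphatases Ptp2 and Ptp3 return it to its resting state. Active Hog1 drives genes of glycerol synthesis, sugar transport and stress defence, and cells without it are known to let osmotic signals leak into the mating pathway. The comparison at 0 min asks which transcripts already differ before that signal is given.

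The values are log2 ratios of the sample over a common reference pool, so a level of 0 means as much transcript as in the pool, and a difference of 1 between strains is a 2-fold difference. Of 5472 open reading frames with a value in all 9 columns at 0 min, 51 passed the test between hog1del and HOG1-GFP (limma with the biological replicate as a block, Benjamini-Hochberg adjusted p under 0.05). They make up 0.932% of the genes tested. The RNA came from whole cultures, in which fewer expressing cells and less transcript per cell cannot be told apart. In hog1del 31 genes were higher (0.567% of those tested) and 20 were lower (0.365%). A mean difference of at least 2-fold was measured for 14 genes (0.256%), all of which passed, 5 of them higher and 9 lower. The bulk of the transcriptome was close between the strains: the median absolute difference was 0.0901 on the log2 scale, and 82.9% of genes lay within 0.2 of 0. All 51 genes had the same sign in 3 of 3 replicates. Of all genes tested, 18.5% were positive and 16.1% negative in all 3. For 31 of the 51 the hog1del and HOG1-GFP levels did not overlap, as was so for 6.27% of all genes tested. The 51 were chosen by a test on these same values, so these counts describe them and do not add support. Pairing the strains within a table matters here, because the same fit without the replicate block called 4 genes (HOG1, URA1, RIB4 and FIT2). Leaving out replicate 1 gave 63 calls, leaving out replicate 2 gave 31 and leaving out replicate 3 gave 11, and there were 32 when HOG1-CCAAX was left out of the fit. The 11 genes that passed whichever replicate was left out were HOG1, URA1, PNS1, MDH2, SED1, RIB4, MRH1, FIT2, YLL053C, FIT3 and PRM5. Replicate 1 stood apart: across genes its strain differences correlated at 0.24 and 0.23 with those of replicates 2 and 3, which correlated with each other at 0.46. Genes are not independent replicates, and these correlations are descriptions.

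HOG1 (YLR113W), the deleted gene, read −3.03, −3.20 and −3.47 in the hog1del strain in replicates 1, 2 and 3, against −0.08, −0.06 and −0.10 in HOG1-GFP. The hog1del levels were the lower ones in every replicate, far from any overlap. HOG1-CCAAX stood near HOG1-GFP, at −0.29, −0.34 and −0.15. The mean difference between hog1del and HOG1-GFP was −3.16 ± 0.21 (SD over 3 replicates; limma adjusted p = 1.3e-07), which is 8.91-fold. The fold is a lower bound, since a probe whose gene is gone still reads background. Marker probes, which have values in replicates 2 and 3 only, checked the labels further. The probe for GFP read −5.11 and −4.67 in hog1del, −0.15 and 0.05 in HOG1-CCAAX and 0.42 and 0.21 in HOG1-GFP. The probe for kanMX4, a gene for resistance to the drug G418, read −4.80 and −4.89 in hog1del, −5.90 and −4.83 in HOG1-CCAAX and 1.01 and 0.56 in HOG1-GFP. The HOG1-GFP strain thus differs from hog1del in the GFP sequence and in a signal for kanMX4 besides HOG1 itself. HOG1-CCAAX was like hog1del in the kanMX4 probe and like HOG1-GFP in the GFP probe. The loss of HOG1 and that of the GFP sequence cannot be told apart in these strains. Between hog1del and HOG1-GFP the loss of HOG1 and the kanMX4 signal cannot be told apart either. The labels do not give other differences between the strains, and no cause was tested.

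**Figure D1:**
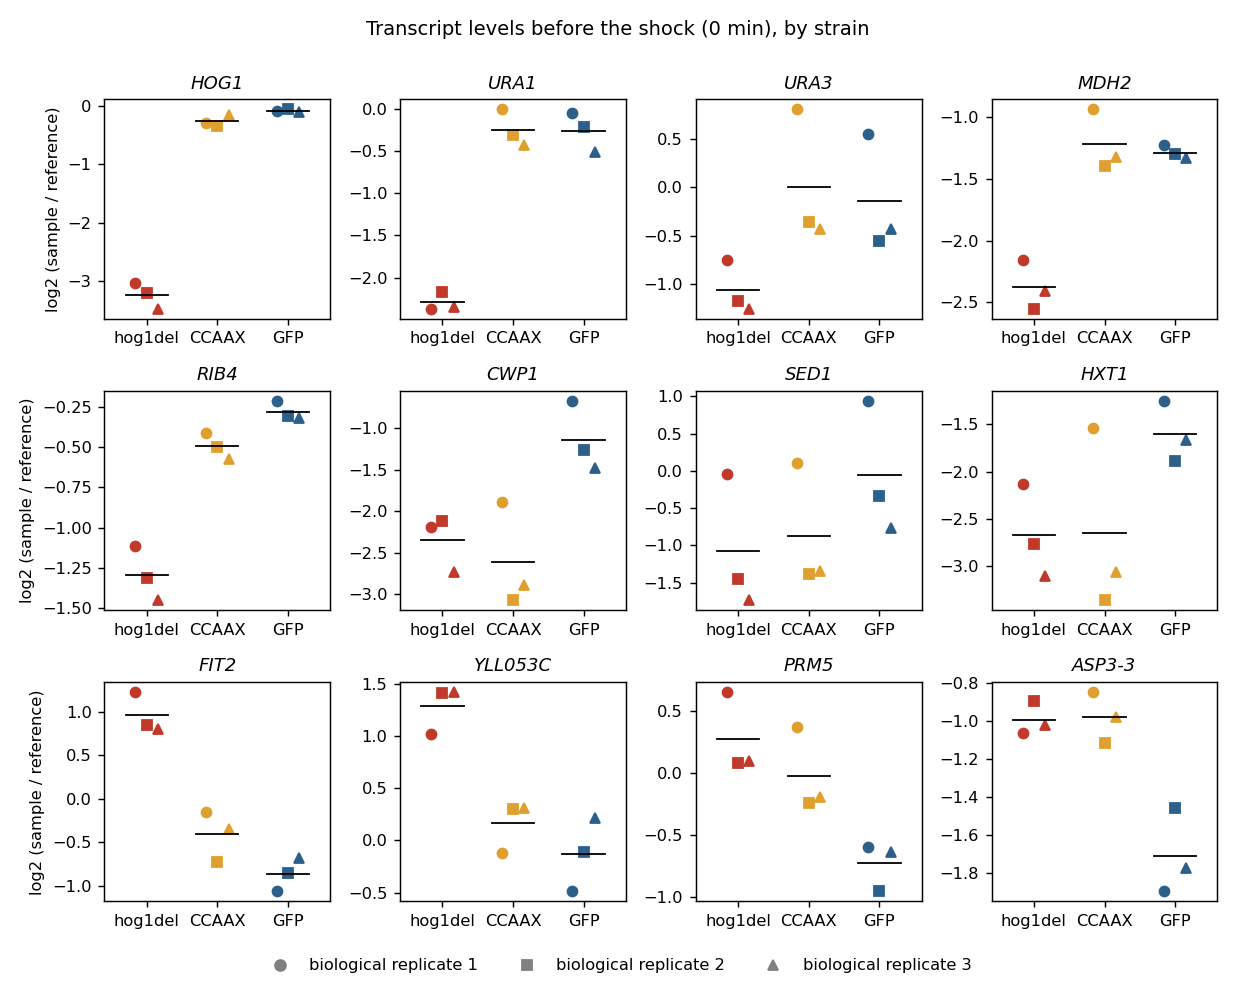
Levels of 12 genes at 0 min on the log2 scale of sample over reference pool, in hog1del, HOG1-CCAAX (written CCAAX) and HOG1-GFP (written GFP). Points are biological replicates 1 (circle), 2 (square) and 3 (triangle), black bars are strain means, and each panel has its own vertical axis. HOG1, URA1, URA3, MDH2 and RIB4 were lower in hog1del than in every replicate of both other strains. In HOG1-CCAAX, CWP1 was low too in every replicate, and HXT1 was low in replicates 2 and 3.

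After HOG1, the gene furthest below its HOG1-GFP level in hog1del was URA1 (YKL216W), the dihydroorotate dehydrogenase of pyrimidine synthesis. Its level was −2.37, −2.17 and −2.34 in hog1del and −0.06, −0.22 and −0.51 in HOG1-GFP. The strains were clearly separate in each replicate, and HOG1-CCAAX (−0.01, −0.31 and −0.43) lay with HOG1-GFP. The difference was −2.03 ± 0.25 (adjusted p = 6.2e-06), or 4.09-fold. Per technical value, URA1 ranged from −2.62 to −1.89 in hog1del and from −0.53 to 0.16 in HOG1-GFP.

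A further pair of pyrimidine genes was lower with it. URA3, the orotidine phosphate decarboxylase that is also a common selection marker in yeast strains, read −0.75, −1.18 and −1.25 in hog1del and 0.55, −0.55 and −0.43 in HOG1-GFP. All hog1del levels were below all HOG1-GFP levels, with a difference of −0.92 ± 0.35 (adjusted p = 0.0111, and 0.0962 without replicate 3 or 0.0847 with quantile normalization). URA4, the dihydroorotase one step before Ura1, read −0.34, −0.52 and −0.49 in hog1del and 0.21, 0.03 and 0.08 in HOG1-GFP. Its difference of −0.56 ± 0.01 (adjusted p = 0.0096) was almost the same in each replicate but missed the threshold without replicate 2 (0.0750) and without replicate 3 (0.2463). Of 19 genes of pyrimidine synthesis and uptake tested, these 3 were lower, none was higher, and the list's median was 0.05 against 0.00 for all genes. The share of all genes tested that passed as lower was 0.365%. Other genes that often serve as markers did not pass: the differences were −0.04 ± 0.12 for HIS3, 0.10 ± 0.17 for LEU2, 0.23 ± 0.21 for MET17 and 0.22 ± 0.10 for LYS2. As with the URA genes, HOG1-CCAAX stood closer to HOG1-GFP than to hog1del for MDH2 and RIB4. For RIB4 it was below HOG1-GFP in each replicate, by a mean difference of −0.21 that did not pass (limma adjusted p = 0.5329). MDH2, the cytosolic malate dehydrogenase of gluconeogenesis, read −2.16, −2.55 and −2.41 in hog1del and −1.23, −1.30 and −1.33 in HOG1-GFP, a difference of −1.08 ± 0.16 (adjusted p = 3.0e-04). RIB4, the lumazine synthase of riboflavin synthesis, read −1.11, −1.31 and −1.45 in hog1del and −0.21, −0.31 and −0.32 in HOG1-GFP, a difference of −1.01 ± 0.11 (adjusted p = 2.3e-04). Neither gene overlapped between the strains, and each passed whichever replicate was left out.

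Genes that the osmotic response normally raises were among the lower ones. In a list of 52 tested osmostress genes reported as Hog1 dependent, 7 were lower in hog1del and none was higher. Of all genes tested, 0.365% were lower and 0.567% higher. The list's median difference was −0.24, against 0.00 for all genes, and it was negative in each replicate (−0.19, −0.36 and −0.23). Of its members, 44 had a negative mean (84.6%, against 48.8% of all genes), and 27 were negative in all 3 replicates (51.9%, against 16.1%). That lean was not particular to this list. The share negative in all 3 was 54.5% in the trehalose and glycogen list, which shares members with it. It was 43.5% in the respiration and TCA cycle list. The osmostress list is not independent of these samples. Of its genes, 15 are among the 30 that the authors chose for their induction in HOG1-GFP and not in hog1del. Of those 30 deposited genes, 29 were tested at 0 min, 5 were lower (PNS1, CWP1, GRE3, RIB4 and HXT1), none was higher, and their median difference was −0.06.

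YRO2, a plasma membrane protein of the Hsp30 family, showed the lowest mean of the list but also a wide spread. It read −1.00, −0.43 and −0.17 in hog1del and −0.45, 1.48 and 1.24 in HOG1-GFP. The groups overlapped, as HOG1-GFP was low in replicate 1, and the difference was −1.29 ± 0.68 (adjusted p = 0.0103, and 0.1186 without replicate 3). CWP1, a mannoprotein of the cell wall, read −2.19, −2.12 and −2.73 in hog1del and −0.67, −1.27 and −1.48 in HOG1-GFP, with no overlap. The difference was −1.21 ± 0.34 (adjusted p = 0.0096, and 0.1043 without replicate 3). PNS1, a membrane protein related to choline transporters, read −1.71, −2.78 and −3.17 in hog1del and −0.69, −1.74 and −1.94 in HOG1-GFP. Levels of both strains were higher in replicate 1 and overlapped across tables, while the difference within a table was even, at −1.09 ± 0.11 (adjusted p = 0.0027). HXT1, the low-affinity glucose transporter, read −2.13, −2.77 and −3.11 in hog1del and −1.25, −1.89 and −1.67 in HOG1-GFP. Its difference of −1.06 ± 0.32 came close to the threshold (adjusted p = 0.0429, and 0.3231 without replicate 3 or 0.0519 with median-centred columns). A second HXT1 probe with values in replicates 2 and 3 was lower in hog1del by −1.55 and −1.31. In replicate 3 the hog1del ratios of PNS1 and HXT1 (−3.17 and −3.11) were as low as those of the HOG1 probe in hog1del. Whether they read background was not tested.

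The 3 smaller calls of the list were DDR48, GRE3 and TPS2. DDR48, a stress protein, differed by −0.60 ± 0.09 (adjusted p = 0.0087). The overlapping reading frame YMR173W-A differed by −0.61 ± 0.07, and the signals of this overlapping pair cannot be told apart here. GRE3, an aldose reductase, differed by −0.56 ± 0.16 (adjusted p = 0.0392), and TPS2, the trehalose phosphate phosphatase, by −0.46 ± 0.06 (adjusted p = 0.0431). GRE3 and TPS2 missed the threshold whichever replicate was left out, with adjusted p up to 0.3028 for GRE3 and 0.3646 for TPS2, and DDR48 missed it without replicate 2 (0.0796) and without replicate 3 (0.1639). STL1, CTT1 and GRE1, which belong to the same list, did not pass. STL1, the glycerol importer, read −2.38, −3.53 and −3.47 in hog1del and −2.97, −3.19 and −3.63 in HOG1-GFP, so the strains overlapped and differed by 0.14 ± 0.46 (adjusted p = 0.8602, 95% interval −0.31 to 0.59). Most of these ratios were as low as those of the HOG1 probe in hog1del (−3.03 to −3.47), where the gene is gone. Whether STL1 read background in both strains was not tested, so the interval does not show equal transcript. CTT1, the cytosolic catalase, differed by −0.43 ± 0.28 (adjusted p = 0.3382) and GRE1, a stress-induced hydrophilin, by −0.06 ± 0.35 (adjusted p = 0.9254).

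GPD1, the glycerol phosphate dehydrogenase that makes the osmolyte, has values in replicates 2 and 3 only and was not tested. It read −3.38 and −3.17 in hog1del and −2.47 and −2.38 in HOG1-GFP, lower in hog1del in both. These hog1del ratios were as low as those of the HOG1 probe in hog1del (−3.03 to −3.47). Whether GPD1 read background there was not tested, so the size of its difference is uncertain. In a fit that also took genes with 2 replicates, GPP2, the glycerol phosphatase, differed by −0.23 (adjusted p = 0.4945) and HSP12, a small membrane-stabilising stress protein, by −0.48 (adjusted p = 0.3805). GRE2, the methylglyoxal reductase of the same osmostress list, passed in that fit at −0.58 (adjusted p = 0.0172).

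Genes of the general stress response, the targets of the activators Msn2 and Msn4, leaned the same way. Of 39 tested, 3 were lower (YGP1, DDR48 and TPS2), beside 0.365% of all genes tested, and none was higher. The median was −0.15, and 18 of them were negative in all 3 replicates (46.2%, against 16.1% of all genes). YGP1, a secreted glycoprotein made as nutrients run out, read −0.53, −1.67 and −1.47 in hog1del and 0.17, −0.62 and −0.43 in HOG1-GFP. It was lower within every table, by −0.93 ± 0.20 (adjusted p = 0.0039, and 0.0981 without replicate 3). In the trehalose and glycogen list 1 of 22 genes was lower (TPS2), with a median of −0.16, and its most negative gene was PGM2, the phosphoglucomutase, at −0.80 ± 0.22 (adjusted p = 0.0593, and 0.0240 without replicate 2). These lists share members, TPS2 and DDR48 among them.

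In the respiration and TCA cycle list only MDH2 of 46 genes passed, beside 0.932% of all genes tested. The list had a median of −0.18, and 42 of its genes had a negative mean (91.3%, against 48.8% of all genes). ATP2, the beta subunit of the ATP synthase, differed by −0.52 ± 0.34 (adjusted p = 0.1188) and NDI1, the internal NADH dehydrogenase, by −0.49 ± 0.26 (adjusted p = 0.0834). The list's medians were −0.07, −0.20 and −0.22 in replicates 1, 2 and 3. At 60 min its median was 0.06.

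**Figure D2:**
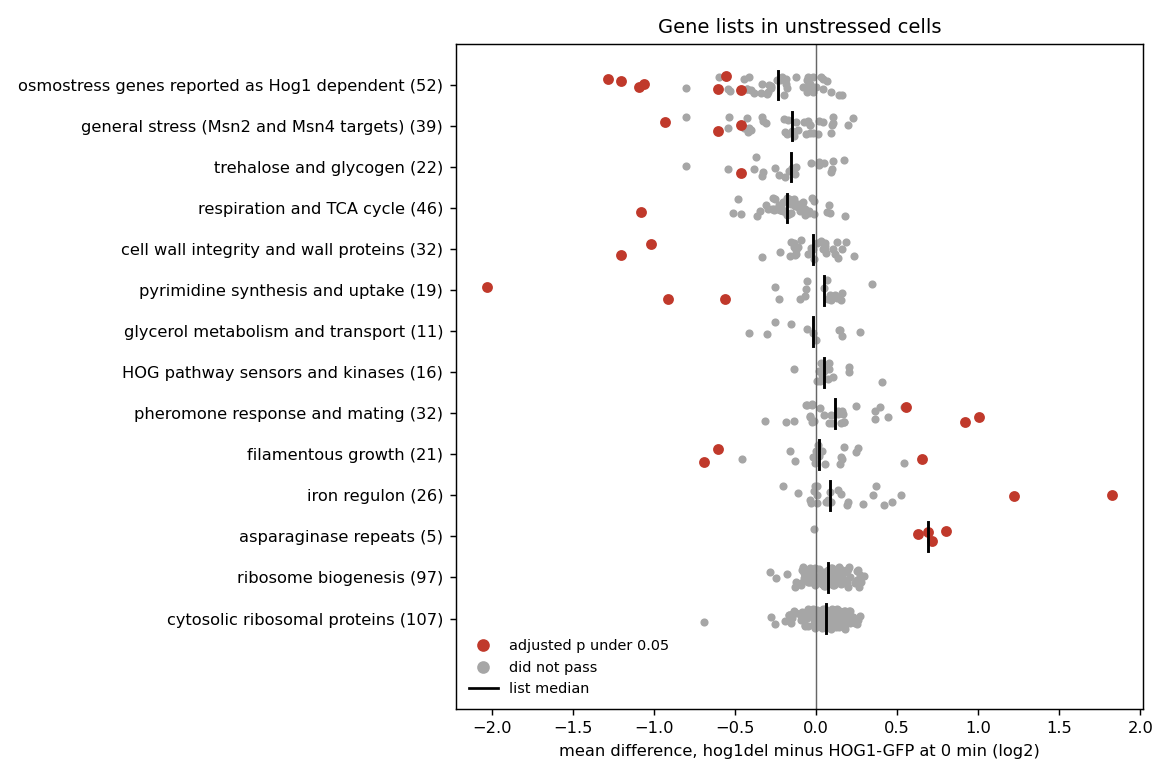
Mean difference of hog1del minus HOG1-GFP at 0 min (log2, horizontal axis) for the tested members of 14 gene lists, with the number tested in brackets. Red points passed the test over all genes, grey points did not, and black bars are list medians. The osmostress list has 7 red points, all below 0, the pheromone list has 3, all above 0, and the ribosomal lists have none.

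Wall and membrane proteins were found in the lower group beyond the stress lists. SED1, a major wall glycoprotein of stationary cells, read −0.04, −1.45 and −1.74 in hog1del and 0.94, −0.34 and −0.77 in HOG1-GFP. Replicate 1 was higher in both strains, and the difference was close to even, at −1.02 ± 0.08 (adjusted p = 6.5e-04). MRH1, a relative of YRO2 in the plasma membrane, read −0.34, −0.18 and −0.31 in hog1del and 0.73, 0.87 and 0.53 in HOG1-GFP. Those levels did not overlap, and they differed by −0.99 ± 0.13 (adjusted p = 4.3e-04). Of 32 tested genes of cell wall integrity and wall structure, CWP1 and SED1 were lower, beside 0.365% of all genes tested. None of the list was higher, and its median was −0.02. The remaining lower genes were MGA1, a protein similar to heat shock factor, at −0.70 ± 0.33 (adjusted p = 0.0371), SMF1, a manganese transporter, at −0.46 ± 0.10 (adjusted p = 0.0320), and CIN5, a bZIP transcription factor, at −0.51 ± 0.08 (adjusted p = 0.0359). Each missed the threshold without replicate 2 and without replicate 3 (adjusted p between 0.1676 and 0.4794), and CIN5 also without replicate 1 (0.0570).

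The gene furthest above its HOG1-GFP level in hog1del codes for a wall protein that holds iron. FIT2 (YOR382W), a mannoprotein that retains siderophore iron in the cell wall, read 1.22, 0.84 and 0.80 in hog1del, against −1.07, −0.86 and −0.68 in HOG1-GFP. HOG1-CCAAX lay in between, at −0.15, −0.73 and −0.35. No HOG1-GFP value came near the hog1del values, and the difference was 1.82 ± 0.42 (adjusted p = 2.0e-04), or 3.54-fold. FIT3, its neighbour and relative, read 0.44, 0.36 and 0.47 in hog1del and −1.21, −0.62 and −0.56 in HOG1-GFP. The hog1del levels were again all above the others, by 1.22 ± 0.38 (adjusted p = 0.0040), and a second FIT3 probe gave 1.19 and 1.09 in replicates 2 and 3. FIT2 and FIT3 were the only calls among 26 tested genes of the iron regulon, whose median was 0.09. Of all genes tested, 0.567% passed as higher. The iron transporter genes SIT1 and FET3 differed by 0.52 ± 0.21 (adjusted p = 0.1915) and by −0.03. FRE7, a putative metal reductase, was higher by 0.75 ± 0.40 (adjusted p = 0.0359), a call that was lost without replicate 2 (0.1954) and without replicate 3 (0.3185). ZRT1, the high-affinity zinc transporter, was higher by 0.65 ± 0.29 (adjusted p = 0.0286) and the metallothionein gene CUP1-1 by 0.58 ± 0.15 (adjusted p = 0.0286). Both missed the threshold whichever replicate was left out, with adjusted p up to 0.1197 for ZRT1 and 0.1639 for CUP1-1, and a second CUP1-1 probe gave 0.19 and 0.14.

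The second largest rise was that of YLL053C, which lies next to AQY2. These reading frames form 1 aquaporin gene in yeast strains where it is intact. YLL053C read 1.02, 1.42 and 1.42 in hog1del and −0.49, −0.11 and 0.21 in HOG1-GFP, while HOG1-CCAAX was near the HOG1-GFP levels at −0.12, 0.30 and 0.31. The difference was 1.42 ± 0.18 (adjusted p = 3.2e-05). AQY2 read 0.63, 0.63 and 0.70 in hog1del and 0.16, −0.68 and −0.54 in HOG1-GFP. It did not overlap between the strains and differed by 1.01 ± 0.47 (adjusted p = 0.0193), but missed the threshold without replicate 2 (0.0796) and without replicate 3 (0.1638). A second AQY2 probe gave 1.23 and 1.17 in replicates 2 and 3.

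Mating genes were present in the higher group, before any osmotic signal. PRM5, a membrane protein induced by pheromone and by wall stress, read 0.65, 0.08 and 0.10 in hog1del and −0.60, −0.95 and −0.64 in HOG1-GFP. All hog1del levels exceeded all HOG1-GFP levels, by 1.00 ± 0.26 (adjusted p = 0.0014). FIG1, a membrane protein needed for calcium entry in mating, read −0.41, −0.64 and −0.76 in hog1del and −0.82, −2.04 and −1.70 in HOG1-GFP. The difference was 0.92 ± 0.49 (adjusted p = 0.0286), which did not hold without replicate 2 (0.1346) or without replicate 3 (0.1772). AGA2, the binding subunit of a-agglutinin, read 1.08, −0.32 and −0.26 in hog1del and 0.51, −0.89 and −0.78 in HOG1-GFP. Replicate 1 lay above both other replicates in each strain, and within tables hog1del was higher by 0.55 ± 0.03 (adjusted p = 0.0359, and 0.1461 without replicate 2 and 0.3112 without replicate 3).

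In the pheromone and mating list 3 of 32 tested genes were higher, beside 0.567% of all genes tested, and none was lower. The list's median was 0.11, and 15 of its genes were positive in all 3 replicates (46.9%, against 18.5% of all genes). That lean was not particular to mating: 47.8% of the thiamine list and 38.5% of the sulfur assimilation list were positive in all 3. No gene of either list passed, and the share was 15.9% for cytosolic ribosomal protein genes. FUS1, the cell fusion gene that reports mating signalling, differed by 0.36 ± 0.28 (adjusted p = 0.2380). Of 4 tested alpha-specific genes none passed. STE3, the receptor for a-factor in alpha cells, differed by 0.56 ± 0.26 (adjusted p = 0.1637, and 0.0236 without replicate 1). A further pheromone-regulated gene, PRM9, was higher by 0.55 ± 0.26 (adjusted p = 0.0486, and 0.3579 without replicate 2 and 0.3646 without replicate 3). In the filamentous growth list SRL3, also called WHI7, was higher at 0.65 ± 0.10 (adjusted p = 0.0111, and 0.2195 without replicate 3), MGA1 and DDR48 were lower, and the median over 21 genes was 0.02.

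A repeat block on chromosome XII gave 6 of the 31 higher genes. It holds 4 copies of ASP3, the wall asparaginase of nitrogen starvation, and the frames YLR159W and YLR161W next to copies of it. The copies are near identical, so their probes may read each other's transcripts and do not count as separate observations. ASP3-3 read −1.07, −0.90 and −1.03 in hog1del and −1.90, −1.46 and −1.78 in HOG1-GFP, without overlap, a difference of 0.72 ± 0.14 (adjusted p = 0.0200). The other copies differed by 0.80 ± 0.17 (ASP3-4), 0.69 ± 0.26 (ASP3-1) and 0.63 ± 0.14 (ASP3-2). YLR159W and YLR161W differed by 0.63 ± 0.22 and 0.56 ± 0.12, and each of these 6 calls was lost in at least 2 of the 3 fits that left out a replicate, with adjusted p up to 0.3112. ASP1, the cytosolic asparaginase elsewhere in the genome, differed by −0.02. Across whole chromosomes the median difference lay between −0.03 and 0.07.

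The other higher genes ranged between 0.53 and 0.81. They included NDJ1, a meiotic telomere protein (0.81 ± 0.17, adjusted p = 0.0066), PUG1, a porphyrin transporter (0.74 ± 0.21, adjusted p = 0.0100), ACA1, a bZIP transcription factor (0.62 ± 0.14, adjusted p = 0.0111), MIP6, an RNA-binding protein (0.61 ± 0.09, adjusted p = 0.0096), and TOS8, a homeodomain protein (0.53 ± 0.20, adjusted p = 0.0420). All 5 calls were lost without replicate 3 (adjusted p between 0.1186 and 0.4179). The rest were CIS1, RTA1, DFP3 and the frames without a gene name YDR271C, YDL241W, YKR041W, YOL162W and YPR015C.

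Among the sensors, kinases, phosphatases and partners of Hog1, CIN5 gave the single call. None of 16 tested sensors and kinases upstream of Hog1 passed. PBS2 read −0.34, 0.11 and −0.06 in hog1del and −0.17, −0.05 and −0.14 in HOG1-GFP, overlapping throughout, with a difference of 0.02 ± 0.17 (95% interval −0.19 to 0.24). SLN1 differed by 0.20 ± 0.12 and SSK22, a kinase of the Sln1 branch, by 0.41 ± 0.07 (adjusted p = 0.1055). None of 7 phosphatases and docking factors passed, with PTP2 at 0.08 ± 0.13 and PTP3 at −0.24 ± 0.27. In 13 tested substrates and nuclear partners of Hog1, CIN5 was the only call. None of 11 genes of glycerol metabolism and transport passed, nor did any of 107 cytosolic ribosomal protein genes (median 0.06) or of 97 ribosome biogenesis genes (median 0.07). The neighbours of HOG1 on its chromosome did not pass either. The nearest ones tested were YLR112W at 0.33 ± 0.21 and AVL9 at 0.18 ± 0.08, and the next, YLR111W, was at 0.69 ± 0.43 (adjusted p = 0.0958, and 0.0037 without replicate 2). An intergenic probe whose name places it at chromosome 12, 373194 to 373335, in a build that the files do not name, read −1.84 and −2.31 in hog1del and 0.09 and −0.08 in HOG1-GFP in replicates 2 and 3, a difference of −1.93 and −2.23. It was lower still in HOG1-CCAAX, at −3.39 in replicate 2, where replicate 3 has no value.

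Setting hog1del against HOG1-CCAAX, the other strain that carries HOG1, gave 16 calls of 5472 (0.292%), of which 7 were higher (0.128%) and 9 lower (0.164%). The count was 2 without the replicate block, 41 without replicate 1 and 7 without replicate 3. This comparison shares the hog1del columns with the first, so the values are only set side by side. Of the 51 genes, 10 also differed from HOG1-CCAAX. HOG1, URA1, MDH2, RIB4, URA3 and URA4 were lower in hog1del than in either strain, and FIT2, YLL053C, MIP6 and SRL3 were higher. For URA1 the difference from HOG1-CCAAX was −2.04 (adjusted p = 5.9e-06), for MDH2 −1.15 (adjusted p = 2.5e-04), for RIB4 −0.80 (adjusted p = 0.0019), for FIT2 1.37 (adjusted p = 0.0019) and for YLL053C 1.12 (adjusted p = 2.5e-04). URA1, MDH2 and URA4 differed between hog1del and HOG1-CCAAX as much as between hog1del and HOG1-GFP. The labels do not say which markers or other changes set hog1del and HOG1-CCAAX apart, and the cause was not tested. URA4 differed from HOG1-CCAAX by −0.65 (adjusted p = 0.0066), beside −0.56 from HOG1-GFP.

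A second set of genes had HOG1-CCAAX on the side of hog1del. Between HOG1-CCAAX and HOG1-GFP, which share the HOG1-GFP columns with the first comparison, 17 genes passed (0.311%), 10 higher in HOG1-CCAAX (0.183%) and 7 lower (0.128%), and 10 of the 51 were among them in the same direction. CWP1, PNS1, SED1 and YMR173W-A were lower in HOG1-CCAAX than in HOG1-GFP, and TOS8, YLR161W, YLR159W, ASP3-3, NDJ1 and PRM5 were higher. DDR48, which overlaps YMR173W-A, did not pass between HOG1-CCAAX and HOG1-GFP (−0.35, adjusted p = 0.1923). CWP1 read −1.89, −3.07 and −2.89 in HOG1-CCAAX, a difference from HOG1-GFP of −1.47 (adjusted p = 0.0069), beside −1.21 for hog1del. SED1 differed from HOG1-GFP by −0.82 in HOG1-CCAAX (adjusted p = 0.0069) beside −1.02 in hog1del. YLR159W was 1.12 higher in HOG1-CCAAX (adjusted p = 9.0e-04), beside 0.63 in hog1del, and the difference between hog1del and HOG1-CCAAX did not pass (adjusted p = 0.1140). None of the 51 passed both comparisons, and 31 of them passed neither. For those genes, such as HXT1 (−1.06 in hog1del and −1.05 in HOG1-CCAAX, adjusted p = 0.0859), the place of HOG1-CCAAX is not settled by these data.

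**Figure D3:**
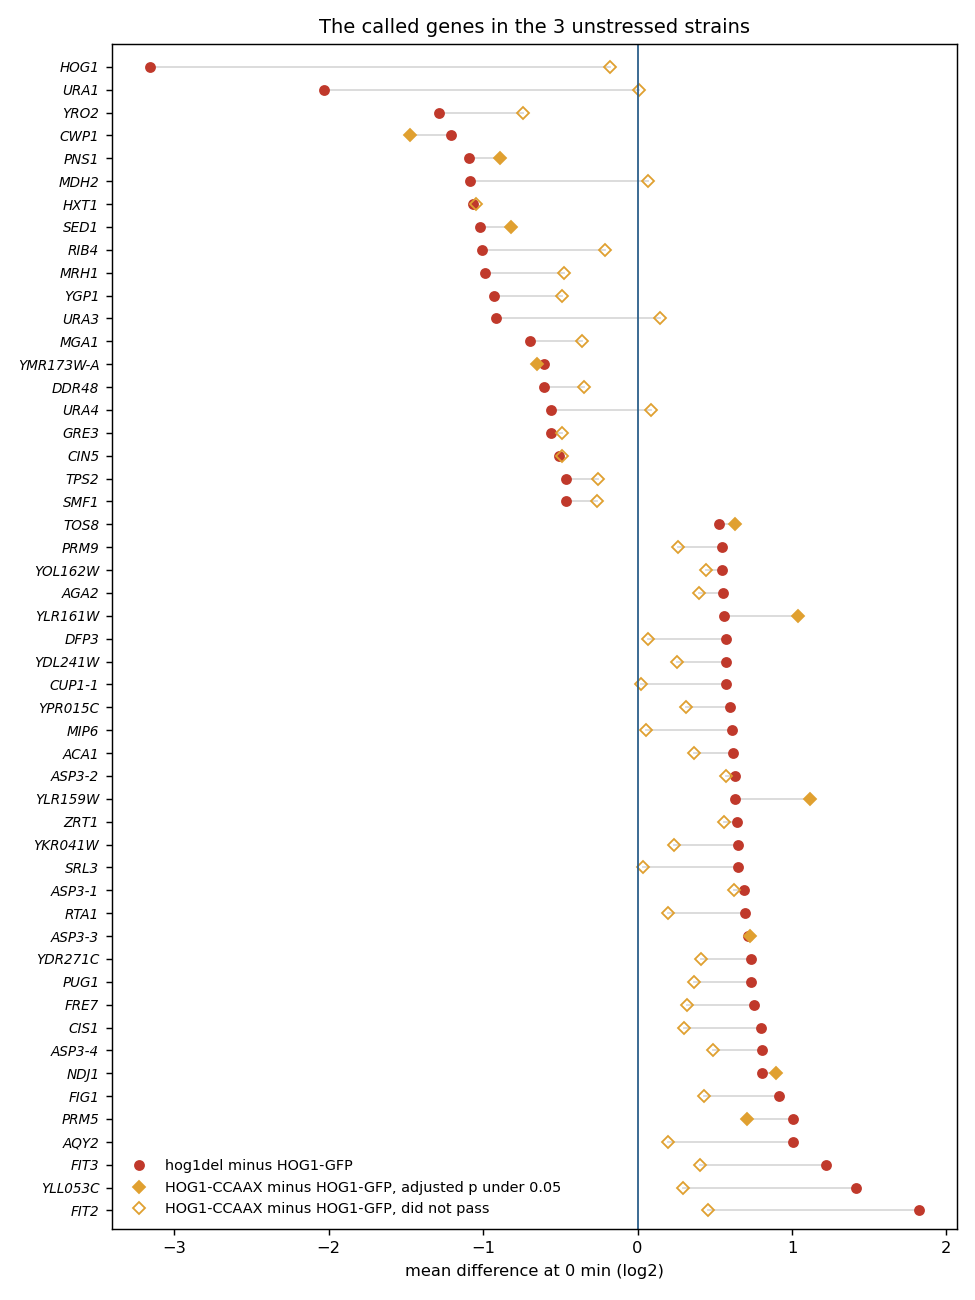
Mean differences at 0 min (log2, horizontal axis) for the 51 genes called between hog1del and HOG1-GFP, ordered by that difference. Red circles are hog1del minus HOG1-GFP, and diamonds are HOG1-CCAAX minus HOG1-GFP, filled where they passed the test, with the blue line at 0 as the HOG1-GFP level. HOG1, URA1, MDH2, URA3 and URA4 have their diamond near 0, while for CWP1, PNS1 and SED1 the diamond lies near the red circle.

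After 60 min in sorbitol the strains differed far more widely. At that time 1480 of 5443 genes passed between hog1del and HOG1-GFP (27.2%), 754 higher in hog1del (13.9%) and 726 lower (13.3%). These counts depend on the replicates: the total was 436 without the replicate block, 539 without replicate 2 and 380 without replicate 3. The columns at 60 min are other hybridizations than those at 0 min, though the strains, the replicate tables and the reference pool are shared, and the labels do not say whether the samples at 0 and 60 min came from the same cultures. Across 5443 genes the mean differences at 0 and 60 min correlated at 0.32. Of the 51 genes that differed at 0 min, 49 had the same sign at 60 min and 38 passed in that direction, 17 of the 20 lower genes and 21 of the 31 higher ones. None passed in the opposite direction. The share of all genes with the same sign at both times is not given here, so the 49 have no background beside them. The median difference of the 20 lower genes was −0.96 at 0 min and −1.30 at 60 min, and that of the 31 higher genes was 0.65 at 0 min and 1.08 at 60 min.

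The change of the strain difference with time was tested directly, and it passed for 804 of 5443 genes (14.8%), with a positive change for 396 (7.28%) and a negative one for 408 (7.5%). Of the 51, 22 were among them. The total over all genes was 140 without the replicate block, 321 without replicate 2 and 148 without replicate 3. The 51 were chosen for their difference at 0 min, and the change is formed from those same 0 min values. A change toward 0 can thus follow from that choice, and the count of 22 describes these genes without adding support. For 18 of the 22 genes the difference was larger at 60 min, 9 of the lower and 9 of the higher. HOG1 is 1 of these 9 lower genes, but its probe reads background in hog1del, so the size of its change is not a measured change of that strain. HXT1 at 60 min read −1.21, −2.78 and −3.38 in hog1del and 2.18, 2.00 and 2.19 in HOG1-GFP. The difference of −1.06 at 0 min thus stood beside one of −4.58 ± 1.10 at 60 min, a change of −3.52 (adjusted p = 2.6e-05). GRE3 differed by −0.56 at 0 min and −3.31 ± 0.35 at 60 min, RIB4 by −1.01 at 0 min and −3.20 ± 0.06 at 60 min. Among the higher genes AGA2 widened most, at 0.55 at 0 min and 3.06 ± 0.09 at 60 min. AGA2 then read 1.91, 1.14 and 1.31 in hog1del and −1.06, −1.91 and −1.85 in HOG1-GFP. The pheromone and mating list as a whole had 27 of 32 genes higher and 3 lower at 60 min, with a median of 1.00, and the osmostress list had 43 of 52 lower and 1 higher, with a median of −1.40. Over all genes, 13.9% were higher and 13.3% lower at 60 min.

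For other genes the difference at 60 min was similar to that at 0 min or smaller. URA1 differed by −2.03 at 0 min and −2.33 ± 0.36 at 60 min, and the change of −0.30 did not pass (adjusted p = 0.3545). URA3 differed by −0.92 at 0 min and −0.85 ± 0.44 at 60 min, and URA4 by −0.56 at both times. FIT2 differed by 1.82 at 0 min and 1.13 ± 0.10 at 60 min, a change of −0.69 that did not pass (adjusted p = 0.0702). MRH1 differed by −0.99 at 0 min and −0.28 ± 0.18 at 60 min, where it did not pass (adjusted p = 0.1755), and that change of 0.71 passed (adjusted p = 0.0249). FRE7, ACA1 and YDR271C passed as higher in hog1del at 0 min but did not pass at 60 min. Their differences at 60 min were −0.42 ± 0.91, −0.09 ± 0.14 and 0.07 ± 0.54, and the change with time passed for each. For FRE7 the differences at 60 min were −1.47, 0.12 and 0.09 in replicates 1, 2 and 3. These genes and MRH1 were chosen for their difference at 0 min, so a smaller difference at 60 min can follow from that choice. STL1, which did not pass at 0 min, differed by −5.16 ± 0.77 at 60 min (adjusted p = 5.7e-07).

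**Figure D4:**
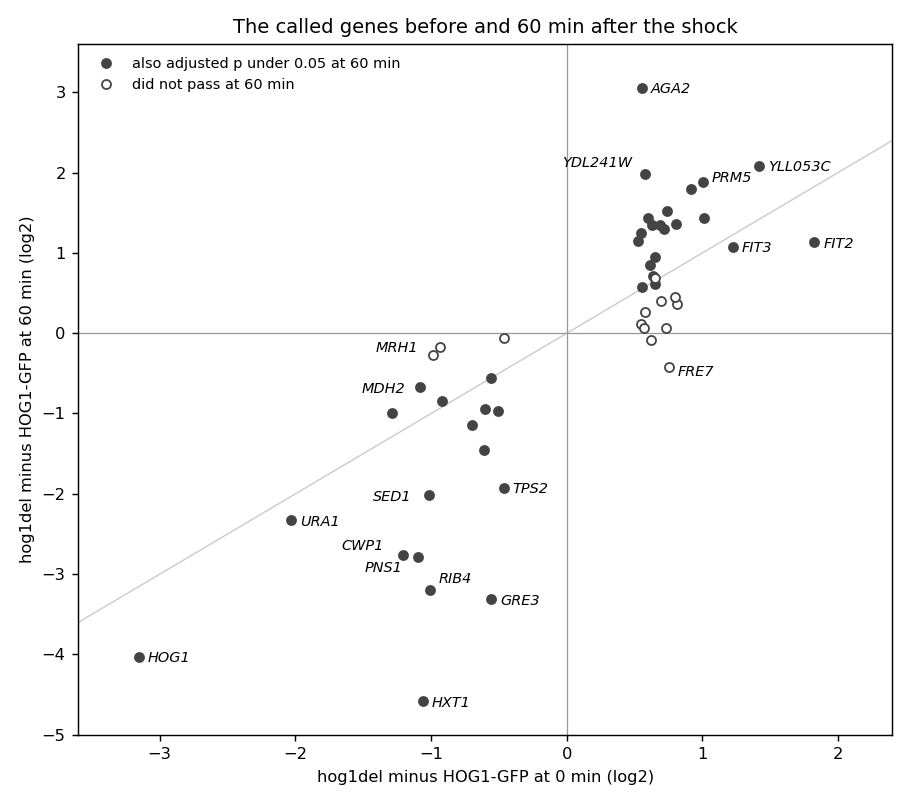
The 51 genes called at 0 min, with the mean difference of hog1del minus HOG1-GFP at 0 min on the horizontal axis and at 60 min on the vertical axis (both log2). Filled points also passed at 60 min, open points did not, and the grey diagonal marks equal differences. HXT1, GRE3, RIB4 and AGA2 lie far from the diagonal, and URA1 lies close to it. FRE7 has a mean below 0 at 60 min, though its differences in replicates 2 and 3 were above 0.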

How the data were processed

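The authors deposited log2 ratios of the Cy5 reference pool over the Cy3 sample, averaged over technical replicates, in 1 table for each biological replicate. Per the labels, total RNA was amplified with an Ambion amino-allyl kit. No label or header used here states the scaling, the background treatment or the spot filters. The sign of every value was reversed, and a positive value now stands for more transcript in the sample than in the pool. All 30 genes that the authors list as induced have negative deposited values in HOG1-GFP, which bears this out. The lowest correlation between level columns was −0.45, but the labels name the dye of each channel, which fixes the direction. Level columns matched the mean of the single samples' deposited values at r of at least 0.9972 after the turn. Of 8635 probes, 6278 are named as open reading frames and 5804 of those were found among RefSeq locus tags, used for names and neighbours only. The 2357 other probes have no value in replicate 1 and were not tested. Medians of the 18 level columns lay between −0.048 and 0.088. Arrays give no depth, and their number limits the precision.

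Genes with all 9 values at 0 min were fitted with limma 3.58.1 in R 4.3.3 (lmFit, eBayes, two-sided), with strain and biological replicate as terms, and the fit was tested on simulated data. P-values were adjusted over all genes tested, and a fold is 2 raised to the mean log2 difference. Replicate numbers were taken to pair the strains, because deviations from group means correlated at 0.74 to 0.91 for equal numbers. Replicates 2 and 3 also correlated with each other, at up to 0.81, so the check bears on replicate 1 above all. Genes were named by size of difference (up to 15 in each direction), as up to 3 members of each of 31 lists, as neighbours of HOG1 or from a short list of pathway and marker genes. The remaining called genes and FET3, ASP1 and GRE2 were named after their values were seen. The members and lists were chosen with earlier results of these data known. No sequence is shown, as none was among the files used here.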

Additional observations from a re-analysis of the deposited data

Results flagged for a closer look

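For 22 of the 51 genes called before the shock, the test of the change found that hog1del minus HOG1-GFP at 60 min departed from the same difference at 0 min (limma, adjusted p under 0.05, against 14.8% of all genes tested). The values here are the difference at 60 min minus that at 0 min on the log2 scale. They use the 0 min values by which the 51 were chosen, so a change toward 0 can follow from that choice. Of the genes lower in hog1del, the change was −3.52 for HXT1, −2.75 for GRE3, −2.19 for RIB4, −1.70 for PNS1, −1.56 for CWP1 and −1.46 for TPS2. It was −1.00 for SED1, −0.85 for YMR173W-A and 0.71 for MRH1. For DDR48, which overlaps YMR173W-A, the change of −0.34 did not pass (limma, adjusted p = 0.3064). The value of −0.88 for HOG1 includes background readings of hog1del at both times, and its size is not a measured change. Of the genes higher in hog1del, the change was 2.50 for AGA2, 1.40 for YDL241W and 0.88 for both FIG1 and PRM5. It was 0.84 for YPR015C, 0.79 for PUG1, 0.72 for ASP3-2, 0.70 for YOL162W and 0.62 for TOS8. The change was negative for FRE7 (−1.17), ACA1 (−0.71) and YDR271C (−0.66). Groups of 3 were not examined for single far samples.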

How the results depend on the processing

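Without the replicate block, the strain comparison at 0 min called 4 genes against 51 with it, and those with a 2-fold minimum were 4 against 14. The same change gave 2 against 16 for hog1del and HOG1-CCAAX, 436 against 1480 at 60 min and 140 against 804 for the change with time. Leaving out 1 replicate gave 11 to 63 genes at 0 min, 7 to 41 against HOG1-CCAAX, 380 to 2012 at 60 min and 148 to 998 for the change with time. With hog1del and HOG1-GFP alone in the fit, 32 genes passed at 0 min, 31 of them among the 51. Median centring left 45 calls, without HXT1, MGA1, GRE3, TPS2, TOS8 and DFP3, quantile normalization 40 and single-sample values 50. Signs turned for 9 named genes that had not passed. Leaving out 1 replicate moved MFA2 between −0.124 and 0.265, SAG1 between −0.011 and 0.044, HXT6 between −0.126 and 0.431, HTZ1 between −0.078 and 0.264 and STL1 between −0.086 and 0.376, with the lowest value without replicate 1. It moved HIS3 between −0.103 and 0.013, RPL41A between −1.094 and 0.039, GRE1 between −0.194 and 0.137 and PBS2 between −0.046 and 0.121. GRE1 was at 0.053 with quantile normalization. The causes were not tested. Technical values of the called genes had a median SD of 0.203 in replicate 1 and 0.056 in replicates 2 and 3.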

Other observations

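A group of reading frames without values in replicate 1 was higher in hog1del in replicates 2 and 3. When the 6015 genes with at least 2 replicates were fitted, 65 passed, 43 of them higher and 22 lower. Among the 65, 14 had not been tested before, and 13 of these have no value in replicate 1. Of these 14, 12 were higher (YBL107W-A, YBR012W-B, YDR210W-B, YDR261C-D, YDR261W-B, YDR316W-B, YDR365W-B, YER138C, YFL002W-A, YLR410W-B, YOR192C-B and YPL257W-B), with differences between 0.64 and 0.83. None of the 12 has a value in replicate 1. Probes named for Ty elements, the retrotransposons of yeast, were then read, chosen after these values were seen and without a test. At 0 min the differences of hog1del minus HOG1-GFP in replicates 2 and 3 were 0.75 and 0.45 for YARCTY1-1, 0.07 and 0.66 for YHRCTY1-1 and 0.81 and 1.28 for YPRWTY1-3, all named for Ty1. They were 0.66 and 0.30 for YLRCTY2-2 and 0.64 and 0.55 for YCLWTY5-1. The Ty3 probe YGRWTY3-1 gave −0.29 and 0.34, and the Ty4 probe YHLWTY4-1 gave −0.09 and −0.05. The Ty3 probe YILWTY3-1 gave 0.05 in replicate 3 and has no difference in replicate 2. At 60 min the differences of the Ty1 probes were 1.80 and 0.72 for YARCTY1-1, 1.05 and 0.85 for YHRCTY1-1 and 3.13 and 1.31 for YPRWTY1-3. The others were then 0.16 and −0.40 for YLRCTY2-2, 1.26 and 1.13 for YCLWTY5-1, 0.73 and 0.79 for YGRWTY3-1, −0.69 and −0.08 for YILWTY3-1 and 0.31 and 0.33 for YHLWTY4-1. Copies of one family are near identical, so such probes cannot be taken as separate observations.

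The frame YJL156W-A was lower in hog1del by −1.34 and −1.57 in replicates 2 and 3 (−1.45, adjusted p = 0.0011 in limma's fit of genes with at least 2 replicates), the largest difference among the 14. Of 9 further MRH1 probes with values, 8 were lower in hog1del in both replicates 2 and 3, and 1 was higher, by 0.33 and 0.12.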
